A study of Mus musculus with 8 samples.

Results

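The genes described here carry and restrain the interleukin 4 (IL4) signal in activated B cells. They are the receptor chain Il4ra, the receptor kinases Jak1 and Jak3, the transcription factor Stat6, the STAT6 target genes Fcer2a and Il4i1, and the feedback inhibitors Cish, Socs1, Socs2 and Socs3. They were chosen by name, and these 10 genes were all found among the 53242 genes of the deposited tables and all passed the filter on low counts, which left 14218 genes to test. The study asked how the loss of EIF4A1, an RNA helicase of the translation initiation complex, alters B cells after activation, and the comparison below is of mRNA levels between 4A1 KO and control B cells.

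IL4 binds a receptor made of the IL4 receptor alpha chain (Il4ra) and, in lymphocytes, the common gamma chain (Il2rg). JAK1 is bound to the alpha chain and JAK3 to the common gamma chain, and the kinases phosphorylate the receptor so that STAT6 docks, is phosphorylated and moves to the nucleus. In B cells STAT6 drives the low-affinity IgE receptor CD23 (Fcer2a), MHC class II, switching to IgE and IgG1 and Il4ra itself. SOCS proteins and CIS (Cish) are induced by JAK and STAT signaling and limit it, by blocking the kinases, by competing for docking sites on receptors or by sending their partners to the proteasome.

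Splenic B cells of C57BL/6 mice aged 8 to 12 weeks were cultured for 24 h with 40 ng/ml IL4 on CD40LB cells, a fibroblast feeder line that expresses CD40 ligand and hBAFF and had been irradiated with 120 Gy. Before RNA extraction the feeder cells were depleted on a magnetic column through a biotin-tagged antibody to their H-2Kd. The 4A1 KO mice were Eif4a1fl/fl CD23-cre and the control mice Eif4a1+/+ CD23-cre, so both groups carried the Cre transgene, which is driven from the Fcer2a promoter. Whether the transgene adds reads to Fcer2a was not tested. Each genotype had 4 libraries from individual mice, with replicates 1 and 2 in batch A, replicates 3 and 4 in batch B, replicates 1 and 3 from males and replicates 2 and 4 from females. Replicate 1 of both genotypes was left out of the main comparison because the study removed it for reduced viability. The main comparison therefore had 3 libraries a genotype, and values for all 8 are given beside it. Every library received IL4 and CD40 ligand, so induction by IL4 was not measured.

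The 6 libraries held from 38488341 to 43210858 counted reads each, and the smallest of all 8, 4A1 KO replicate 1, held 31727557. Eif4a1 itself was at 748 to 940 CPM (read counts scaled by TMM-normalized library size) in the controls and at 556 to 689 in 4A1 KO, a log2 fold change of -0.44. The floxed exons are only a stretch of the gene, and counts over the whole gene do not show whether they were removed. All 6 B cell markers were present in every library, and their summed level was 3520 to 3726 CPM in controls and 2880 to 3104 CPM in 4A1 KO. The fibroblast list, which stands for residual feeder cells, summed to 27.5 to 48.0 CPM in controls and 23.3 to 35.2 CPM in 4A1 KO, with Postn and Lum at 0 in every library. Within that list Fn1 was increased (log2 fold change 0.86), Col3a1 decreased (-1.57) and Thy1 lower (-0.50, not called). Over all 8 libraries Col3a1 was at -0.91 and not called (adjusted p = 0.201, edgeR), and it reached at most 0.94 CPM in a library. T cell markers summed to at most 0.0999 CPM in a library and NK cell, mast cell and basophil markers were at 0, which allows up to 0.0946 CPM (3 counts) in the smallest library. Myeloid markers summed to 4.09 to 8.14 CPM in controls and 7.31 to 8.92 CPM in 4A1 KO. Adgre1 was increased (0.62), but over all 8 libraries it was at 0.47 and not called. Plasma cell markers were at 31.8 to 37.2 CPM in controls and 16.2 to 37.9 CPM in 4A1 KO. The part of these differences in the results below was not tested. In bulk RNA, fewer cells of a type and less RNA per cell cannot be told apart.

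STAT dimers bind palindromes that read TTCNNNGAA or, typically for STAT6, TTC and GAA with 4 bases of any kind (N) between them. These letters were searched in windows of 300 bases around RefSeq gene starts. Both spacings read the same on either strand, and no match of one overlapped a match of the other in the windows of these genes. Of 32851 windows, 8.30% held TTCNNNGAA, 6.95% the wider spacing, 14.6% held either and 1.39% held at least 2 matches. Among the 10 genes 9 had a window, 11 windows in all, and no match was found in those of Il4ra, Jak1, Jak3, Stat6, Il4i1 and Socs1. The matches of the other 3 genes are printed because they are the STAT-type letters found at a STAT6 target and at 2 feedback inhibitors. The windows are from the RefSeq promoter table of GRCm38.p6, the coordinates are from a match to GRCm39, each sequence is in the direction of its gene, and capitals mark the motif.
Cish, first match: cgcccagttTTCCTGGAAagttcttgg
Cish, second match: cctggaaagTTCTTGGAAatctgtcaa
Fcer2a: gagggtgaaTTCCCAAGAAgggccagga
Socs3: aaaccagccTTCTTAGAAgggaggggg
The Cish sequences lie on the plus strand at chr9:107173849-107173875 and chr9:107173860-107173886, overlap each other, and their motifs begin at positions 1 and 12 counted from the RefSeq start. The Fcer2a sequence lies on the minus strand at chr8:3741011-3741038 with the motif at position -168, in 1 of the 3 windows of that gene, and is the match with the wider spacing. The Socs3 sequence lies on the minus strand at chr11:117860329-117860355 with the motif at position -154. A match of these letters is a description and not a binding site.

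Calls needed a log2 fold change of more than 0.5 in either direction together with an adjusted p below 0.05. By this rule Il4ra, Jak3 and Socs1 were decreased in 4A1 KO B cells and none of the 10 genes was increased. That is 3 of 10 called, 30.0%, where 25.3% of all genes tested were called, 13.7% as decreased and 11.6% as increased. Over all 8 libraries the same 3 genes were called, beside 25.6% of all genes. At an adjusted p under 0.05 alone, Stat6 and Fcer2a were higher and Il4ra, Jak3, Il4i1 and Socs1 were lower, 6 of 10 beside 53.0% of all genes (26.3% of all genes higher and 26.7% lower). Both shares are close to those of the whole transcriptome. The median log2 fold change was -0.22 over the 10 genes and 0.01 over all genes tested.

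**Figure D1:**
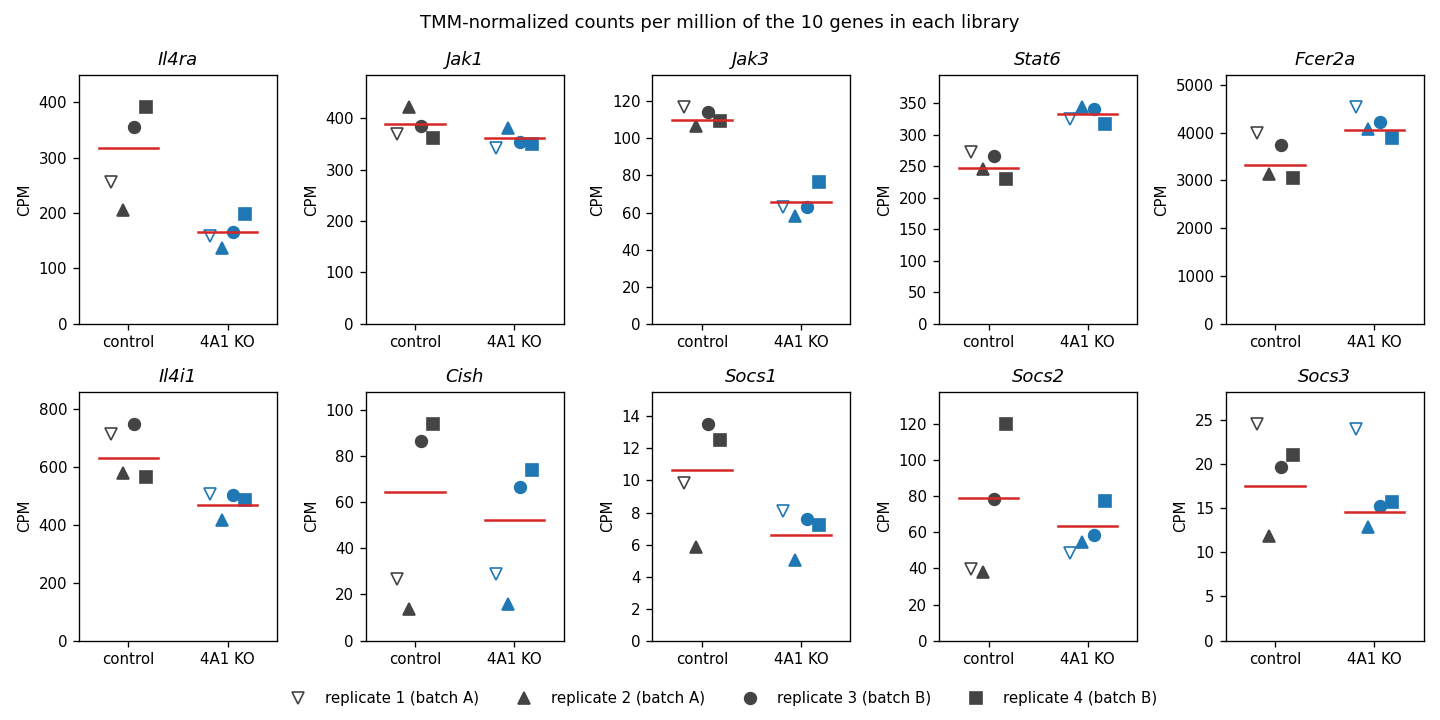
Points give TMM-normalized CPM (y axes, linear and starting at 0) of each gene in the 4 control (grey) and 4 4A1 KO (blue) libraries; open symbols are replicate 1 and red lines are means of replicates 2 to 4. Il4ra, Jak3, Stat6 and Il4i1 separate the genotypes in the 8 libraries, while Cish spans 13.6 to 94.0 CPM within the controls.

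Il4ra (ENSMUSG00000030748, GRCm39 chr7:125151079-125182844, plus strand), the chain that binds IL4, was at 257, 206, 356 and 391 CPM in control replicates 1 to 4 and at 158, 136, 166 and 198 CPM in 4A1 KO replicates 1 to 4. Every 4A1 KO library lay below every control library, and the controls of batch B were the highest. The log2 fold change was -0.90 ± 0.086 (SE, n = 3 a genotype, 95% CI -1.09 to -0.70), with an adjusted p of 5.31e-05 (edgeR quasi-likelihood test, Benjamini-Hochberg method). Within pairs of the same replicate number it was -0.70, -0.59, -1.11 and -0.98 in replicates 1 to 4. Over all 8 libraries it was -0.85.

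Jak3 (ENSMUSG00000031805, chr8:72123007-72143225, plus strand), the kinase on the common gamma chain, was at 117, 107, 114 and 109 CPM in the controls and at 63.1, 57.9, 63.2 and 76.4 CPM in 4A1 KO. The controls were tightly grouped and all lay above all 4A1 KO libraries, of which replicate 4 was the highest. It was lower in 4A1 KO, with a log2 fold change of -0.75 ± 0.075 (SE, n = 3 a genotype, 95% CI -0.92 to -0.58), with an adjusted p of 6.51e-05 in the same edgeR test. The pairs gave -0.89, -0.88, -0.85 and -0.52, and the 8 libraries together -0.78. The gene Insl3, a testis hormone gene, lies wholly within Jak3 exons on the same strand and had 87 to 231 counts in a library, where Jak3 had 1992 to 4761.

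Jak1 (ENSMUSG00000028530, chr4:101008838-101122487, minus strand), the kinase on the alpha chain, was at 370, 422, 384 and 362 CPM in the controls and at 343, 381, 353 and 351 CPM in 4A1 KO. The genotypes overlapped. A log2 fold change of -0.10 (95% CI -0.21 to -0.00272) did not pass the test across all genes, with an adjusted p of 0.0790 in the edgeR test.

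Stat6 (ENSMUSG00000002147, chr10:127477821-127496862, plus strand), the factor that the IL4 receptor activates, was at 273, 246, 267 and 229 CPM in the controls and at 324, 344, 341 and 317 CPM in 4A1 KO. All 4A1 KO libraries lay above all controls, opposite in direction to Il4ra and Jak3. Stat6 was higher by a log2 fold change of 0.43 ± 0.047 (SE, n = 3 a genotype, 95% CI 0.33 to 0.54; adjusted p = 1.00e-04, edgeR), below the fold threshold for a call, and the pairs gave 0.25, 0.48, 0.35 and 0.46. The files hold mRNA values, so neither STAT6 protein nor its phosphorylation was measured here.

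**Figure D2:**
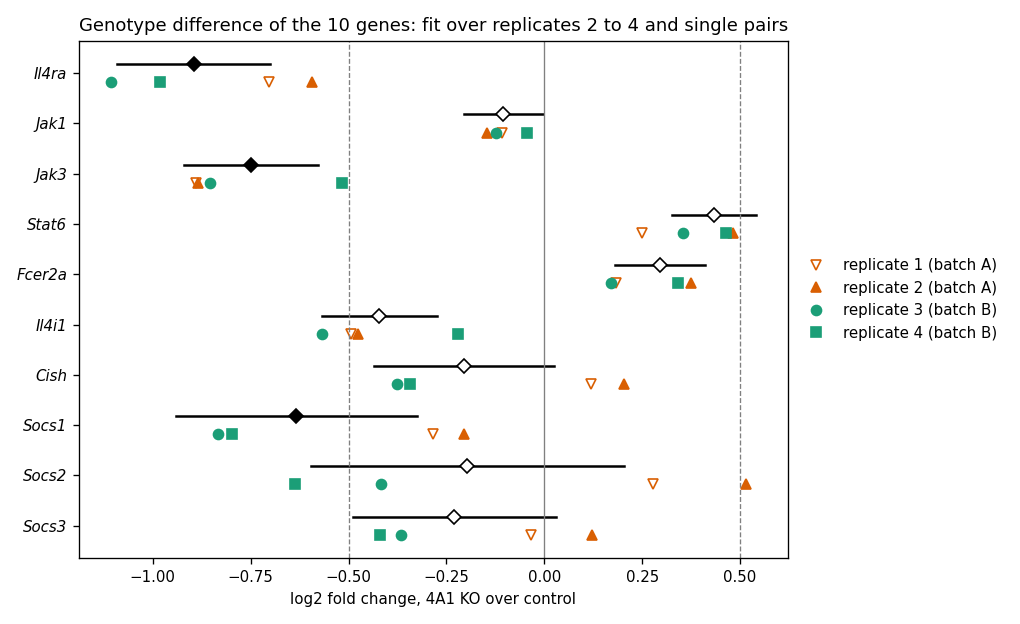
Diamonds give the log2 fold change (x axis, 4A1 KO over control) fitted over replicates 2 to 4 with its 95% confidence interval, filled where the gene was called, and the symbols below give each same-numbered pair (orange, batch A; green, batch B; open, replicate 1); dashed lines mark 0.5 in either direction. Il4ra, Jak3 and Socs1 are the filled ones, and the pairs of Cish and Socs2 lie on both sides of 0, batch A above and batch B below.

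The STAT6 targets Fcer2a and Il4i1 differed between the genotypes in opposite directions. Fcer2a (ENSMUSG00000005540, chr8:3731737-3744183, minus strand) was at 3990, 3140, 3748 and 3061 CPM in the controls and at 4532, 4070, 4215 and 3881 CPM in 4A1 KO. The lowest 4A1 KO library lay below the highest control, control 1, and replicates 2 to 4 did not overlap. Fcer2a was higher by a log2 fold change of 0.30 ± 0.050 (SE, n = 3 a genotype, 95% CI 0.18 to 0.41; adjusted p = 0.00116, edgeR), with all 4 pairs above 0. Stretches of 112 to 131 bases of Fcer2a transcripts are at least 95% identical to transcripts of 9 other genes, and how such reads were counted is not given in the sources used here.

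Il4i1 (ENSMUSG00000074141, chr7:44465354-44490233, plus strand) encodes a secreted L-amino acid oxidase named for its induction by IL4. It was at 713, 577, 747 and 564 CPM in the controls and at 506, 415, 504 and 484 CPM in 4A1 KO, with no overlap. In the fit it was lower, with a log2 fold change of -0.42 ± 0.065 (SE, n = 3 a genotype, 95% CI -0.57 to -0.27; adjusted p = 6.71e-04, edgeR), below the fold threshold. It passed that threshold without replicate 4 of both genotypes, at -0.52. Its neighbour Nup62, a nucleoporin gene, shares 554 exon bases with it on the same strand, 11.2% of its exon bases, and Nup62 was itself decreased (log2 fold change -0.60). The share of Il4i1 reads from those bases was not measured.

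Socs1 (ENSMUSG00000038037, chr16:10600104-10603875, minus strand), whose protein inhibits JAK kinases, was at 9.87, 5.84, 13.5 and 12.5 CPM in the controls and at 8.10, 5.06, 7.60 and 7.22 CPM in 4A1 KO. Control 2 was low and lay among the 4A1 KO libraries, so the genotypes overlapped although each 4A1 KO library was below the control of its own number. Its fitted log2 fold change was -0.63 ± 0.14 (SE, n = 3 a genotype, 95% CI -0.94 to -0.33), with an adjusted p of 0.00398 in the edgeR test. The pairs gave -0.28 and -0.21 in batch A and -0.83 and -0.80 in batch B. Without the replicate block the estimate was -0.68 with an adjusted p of 0.120 from edgeR, so this call rests on the comparison within pairs.

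Socs3 (ENSMUSG00000053113, chr11:117856905-117860898, minus strand), an inhibitor of cytokine receptors that signal through STAT3, was at 24.5, 11.8, 19.6 and 21.0 CPM in the controls and at 23.9, 12.8, 15.2 and 15.7 CPM in 4A1 KO. Replicate 1 was highest and replicate 2 lowest in both genotypes, and the genotypes overlapped. In the fit Socs3 was at a log2 fold change of -0.23 (95% CI -0.49 to 0.03; adjusted p = 0.121, edgeR). It was -0.39 without replicate 2, where only batch B remains, with an adjusted p of 0.0190 in edgeR. Without replicate 4 it was -0.13.

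Cish (ENSMUSG00000032578, chr9:107173225-107179983, plus strand), a target of STAT5, was at 26.6, 13.6, 86.6 and 94.0 CPM in the controls and at 28.9, 15.7, 66.7 and 74.2 CPM in 4A1 KO. Libraries of batch A were low and those of batch B high in both genotypes. The genotype difference did not pass the test, with a log2 fold change of -0.20 (95% CI -0.44 to 0.03; adjusted p = 0.120, edgeR). It was -0.36 without replicate 2, where only batch B remains, with an adjusted p of 0.00637 in edgeR and still under the fold threshold. Without replicate 3 it was -0.09, with an adjusted p of 0.557 in edgeR. The pairs were at 0.12 and 0.20 in batch A and at -0.38 and -0.34 in batch B.

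Socs2 (ENSMUSG00000020027, chr10:95219523-95253929, minus strand), an inhibitor of growth hormone receptor signaling, was at 40.0, 38.3, 78.5 and 120 CPM in the controls and at 48.5, 54.7, 58.8 and 77.3 CPM in 4A1 KO. The controls of batch A were the lowest and control 4 the highest of the 8 libraries. A log2 fold change of -0.20 (95% CI -0.60 to 0.20) had an adjusted p of 0.377 in the edgeR test. The estimate depended on the replicates kept. It was -0.53 without replicate 2, where only batch B remains, with an adjusted p of 0.00339 in edgeR. Without replicate 4 it was 0.04. The pairs were at 0.28 and 0.52 in batch A and at -0.42 and -0.64 in batch B. The pseudogene-like gene Gm9847, 99.5% identical over 592 bases to Socs2, had 6 to 23 counts in a library.

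In exact permutation tests over the 8 libraries, two-sided, the smallest p that 4 against 4 allows is 0.0286. Il4ra, Jak3, Stat6 and Il4i1 reached it, being the 4 genes whose genotypes did not overlap, and 36.8% of all genes tested showed no overlap, 17.2% with 4A1 KO higher, as Stat6, and 19.6% with 4A1 KO lower, as the other 3. In replicates 2 to 4 Fcer2a was added to them, 5 of 10 beside 50.9% of all genes. Fcer2a had p = 0.0571 in CPM and 0.0286 in TPM in the same exact permutation tests. The exact permutation p was 0.114 for Socs1, 0.143 for Jak1, 0.514 for Socs3, 0.657 for Cish and 0.714 for Socs2. The study's TPM, from another counter, gave the same direction for each of the 10 genes and a log2 fold change within 0.11 of that from the counts. In limma on log2(TPM + 1), 6 of the 10 genes, the ones named above at an adjusted p under 0.05, passed the test, beside 47.2% of 12976 genes.

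The inhibitors Cish and Socs2 and the receptor Il4ra also differed between the labelled batches, a comparison chosen after the values had been seen. The batch is the experimental batch of the study's methods, with no further detail in the sources used here. The 4 libraries of a batch come from 2 replicate numbers, and the model counts libraries of the same number as independent. Its SEs and p-values do not allow for likeness within a number. In the 8 libraries, with genotype and sex in the model, batch B lay above batch A by a log2 of 1.97 ± 0.20 for Cish, 0.85 ± 0.18 for Socs2 and 0.50 ± 0.10 for Il4ra (SE, 4 libraries a batch), with adjusted p-values of 3.71e-04, 0.00709 and 0.00715 from edgeR. These 3 of 10 genes passed both thresholds, each higher in batch B, and 6.75% of all genes tested did, 3.42% as higher in batch B. Socs1 was also higher in batch B, by 0.50 ± 0.15 (adjusted p = 0.0369, edgeR), just under the fold threshold; these 4 of 10 genes passed the adjusted p alone, and 28.2% of all genes did. In the 6 libraries of the main comparison, replicate 2 alone stands for batch A and the sex term takes up replicate 3. The batch term there compares replicate 4 with replicate 2 only. By it 5 of the 10 genes passed both thresholds, beside 4.51% of all genes. These were Cish at 2.51, Socs2 at 1.05, Socs1 at 0.81, Il4ra at 0.73 and Socs3 at 0.56, each higher in replicate 4. Socs3 was at 0.03 with an adjusted p of 0.920 in edgeR over the 8 libraries. For Cish and Socs2 every library of batch B lay above every library of batch A, and 5.14% of all genes showed that order. The mean of batch B was 4.49 times that of batch A for Cish in the controls and 3.16 times in 4A1 KO, and for Socs2 it was 2.54 and 1.32 times. Stat5a and Stat5b encode proteins that drive Cish and Socs2. Over the 8 libraries both genes were higher in batch B, by 0.49 and 0.48 on the log2 scale (adjusted p = 6.45e-04 and 2.71e-04, edgeR). Both were under the fold threshold, and 28.2% of all genes passed the adjusted p. In the 6 libraries, replicate 4 against replicate 2, they were at 0.60 and 0.56, past both thresholds. STAT5 activity was not measured, and a part of Stat5a and Stat5b in the batch differences was not tested. The summed fibroblast markers were at 23.3 to 48.0 CPM in batch A and 26.4 to 40.6 CPM in batch B, but single markers differed in both directions. Thy1 was higher in batch B by 1.64 on the log2 scale, and Col1a1 (-1.28), Col1a2 (-1.95), Col3a1 (-2.08) and Sparc (-1.64) were lower, each at an adjusted p under 0.05. Of the markers of other cells, Prdm1 (0.94), Sdc1 (0.49) and Pax5 (0.26) were higher in batch B at an adjusted p under 0.05. Cd79a (-0.66), Adgre1 (-0.43) and Cd22 (-0.32) were lower at that level. The part of all these markers in the batch differences was not tested.

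The genotype difference of Socs2 was lower in batch B than in batch A by 0.92 on the log2 scale (-0.92 ± 0.19, SE, 95% CI -1.37 to -0.48). The unadjusted p of that interaction was 0.00118 and the adjusted p 0.999 in edgeR's quasi-likelihood test. At an unadjusted p under 0.05 this was 1 of the 10 genes, where 4.29% of all genes, 610 of 14211, had one, and after adjustment 0.00704% of them, a single gene, passed. For Cish the interaction was -0.50 (95% CI -1.35 to 0.35; unadjusted p = 0.211, edgeR). Between the sexes, 0 genes had a genotype difference that differed at an adjusted p under 0.05 and 405 (2.85%) at an unadjusted p under 0.05 in edgeR, Fcer2a among them with -0.18 (male minus female, 95% CI -0.33 to -0.04; unadjusted p = 0.0202). In the counts Fcer2a and Il4i1 were higher in males than in females of either genotype, by 0.23 ± 0.042 and 0.26 ± 0.054 on the log2 scale (adjusted p = 0.0174 and 0.0251, edgeR). These 2 of 10 genes compare with 6.88% of all genes, and both lie under the fold threshold. Here too libraries of the same number were counted as independent. In the deposited TPM, Il4i1 of 4A1 KO was not higher in males on average.

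**Figure D3:**
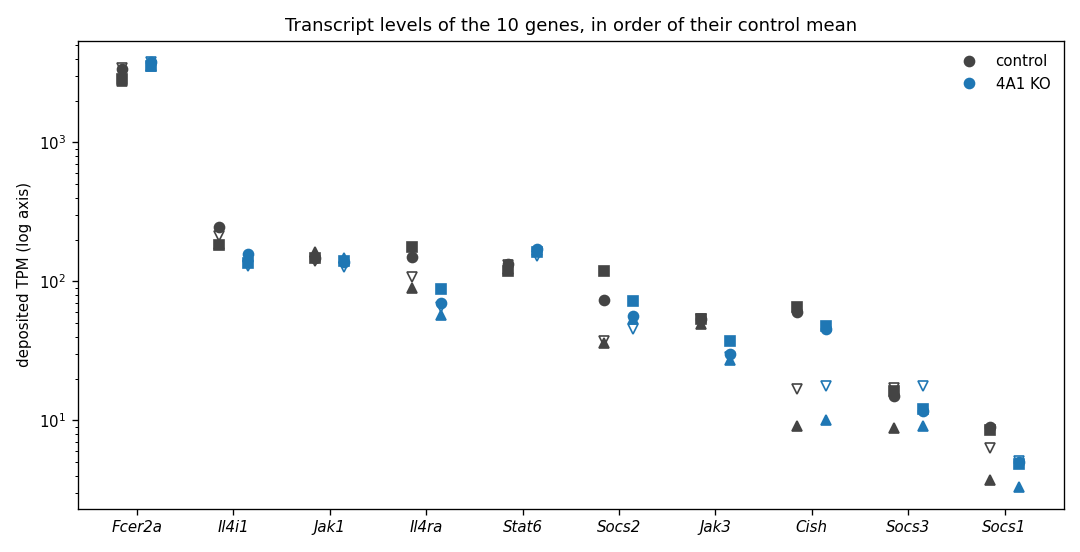
Deposited TPM (y axis, log scale) of each gene in the 4 control (grey) and 4 4A1 KO (blue) libraries, with genes in the order of their control mean, open symbols for replicate 1, up-pointing triangles, circles and squares for replicates 2, 3 and 4. Levels run from Fcer2a near 2994 TPM to Socs1 near 7.09 TPM in controls.

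Levels of different genes were compared in TPM, which is per transcript length. In the controls Fcer2a stood at 2994 ± 327 TPM (SD, n = 3), far above Il4i1 at 205 ± 36.3 TPM, and no library of the 4 controls broke that order. Jak1 at 153 ± 8.29, Il4ra at 138 ± 44.5 and Stat6 at 125 ± 7.37 TPM followed (SD, n = 3), and of these neighbours only Il4i1 and Jak1 did not overlap over the 4 controls. Socs2 at 76.0 ± 41.5, Jak3 at 52.4 ± 2.27 and Cish at 45.1 ± 31.3 TPM came next and overlapped one another, while Stat6 and Socs2 did not. Socs3 at 13.4 ± 4.01 and Socs1 at 7.09 ± 2.89 TPM were the lowest and overlapped, and Socs3 also overlapped Cish. In 4A1 KO, Stat6 at 168 ± 4.46 TPM took the second place of the 10 genes and Il4ra at 71.9 ± 15.1 TPM the fifth (SD, n = 3).

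Around these genes, a list of 61 genes of IL4 and common gamma chain signaling, the 10 included, was read from the same fit. Without the 10, 48 genes were tested and 13 called, 5 increased and 8 decreased, 27.1% beside 25.3% of all genes. The partner chains of Il4ra moved in opposite directions. Il2rg, the common gamma chain, was at 194 to 245 CPM in the controls and 299 to 355 CPM in 4A1 KO (log2 fold change 0.56), and Il13ra1, the partner of Il4ra in the receptor that also binds IL13, was at 1.65 to 2.98 CPM in the controls and 0.665 to 1.61 CPM in 4A1 KO (-1.07). The deposited counts of Il13ra2, Il4 and Il13 were 0 in every library, while Il4 was listed at 0.165 to 0.497 TPM in 4 of the 8 libraries and at 0 in the others. Among 6 chains that share the common gamma chain, Il2ra, the IL2 receptor alpha chain, was increased from 32.0 to 56.9 CPM in the controls to 88.6 to 124 CPM in 4A1 KO (1.22). The other 5 did not pass the test, with Il7r at 0.90 and an adjusted p of 0.0561 in edgeR, Il9r at -0.29 and Il15ra at -0.08. These values moved with single replicates: Il7r was at 0.27 without replicate 3 and at 1.31, a call, without replicate 4, and Il9r was at -0.03 without replicate 2.

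Of the other kinases and STAT factors none was called. Jak2 (-0.25) and Tyk2 (-0.37) were lower at an adjusted p under 0.05, as were Stat2 (-0.48), which carries interferon signals, and Stat4 (-0.40), which carries IL12 signals, and Stat3 (0.35) was higher; Stat2 was called without replicate 2, at -0.55. Stat5a at 0.11 and Stat5b at 0.07 did not pass. Of 7 adaptor and PI3K genes, Pik3cd, the PI3K delta subunit of lymphocytes, was decreased (-0.79), from 153 to 167 CPM in the controls to 78.5 to 103 CPM in 4A1 KO. Irs2 (0.46) and Shc1 (0.22) were higher and Pik3r1 (-0.20) lower at an adjusted p under 0.05. Irs2 was at 0.27 over the 8 libraries, with an adjusted p of 0.271 in edgeR, at 0.28 without replicate 3 and at 0.62, a call, without replicate 4.

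Of the 4 other SOCS genes, 3 were increased, 75.0% beside 11.6% of all genes. Socs7 was increased, at 40.7 to 46.0 CPM in the controls and 91.3 to 106 CPM in 4A1 KO (1.17), and so were Socs6 (0.54) and Socs4 (0.54), while Socs5 at 0.27 had an adjusted p of 0.123 in edgeR and was at 0.11 without replicate 2 and at 0.42 without replicate 3. Socs4 was at 0.50, just under the fold threshold, over the 8 libraries and at 0.48 without replicate 2, and Socs6 was at 0.47 without replicate 3. In limma on log2(TPM + 1), Socs6 did not pass (0.45, adjusted p = 0.0862), while Socs4 (0.48) and Socs7 (1.17) did. Of the 8 family genes tested, 3 were called increased and Socs1 alone was called decreased. Among 8 phosphatases and PIAS genes, which dephosphorylate or sumoylate pathway proteins, none was called, beside 25.3% of all genes. At an adjusted p under 0.05 alone, 4 were higher and 3 lower, 7 of 8 beside 53.0% of all genes (26.3% higher and 26.7% lower), with Ptpn11 at 0.41, Ptpn2 at 0.24, Ptpn1 at -0.32 and Pias4 at -0.35.

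**Figure D4:**
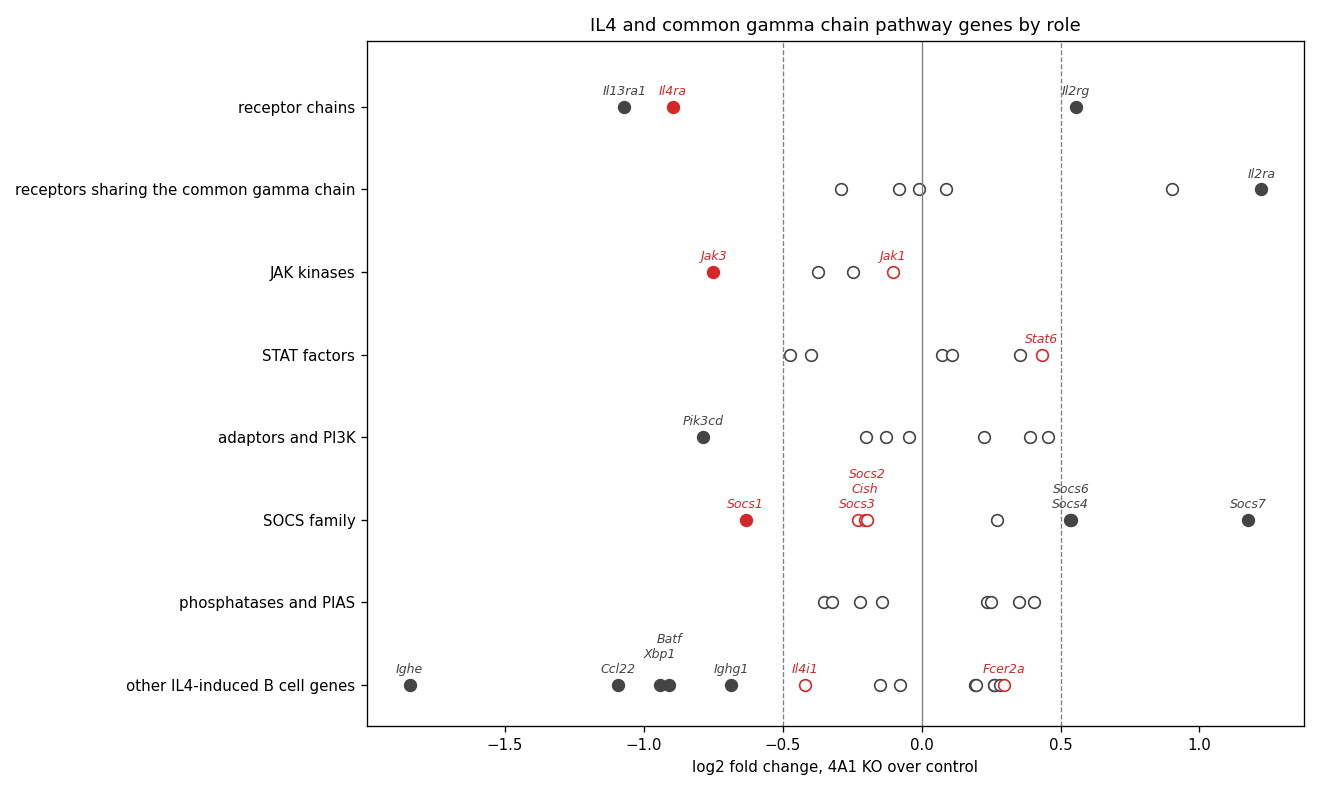
Each point is the log2 fold change (x axis, 4A1 KO over control, replicates 2 to 4) of a tested gene of the pathway list, in rows by role; red marks the 10 genes, filled points were called, and dashed lines mark 0.5 in either direction. Il4ra, Jak3 and Socs1 lie on the left and Il2rg, Il2ra, Socs4, Socs6 and Socs7 on the right.

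The other genes that IL4 is known to induce in B cells, 13 without Fcer2a and Il4i1, held 6 decreased and 0 increased genes, 46.2% called beside 25.3% of all genes called and 13.7% called as decreased. At an adjusted p under 0.05 alone, 6 were lower and 5 higher, 11 of 13 beside 53.0% of all genes (26.7% lower and 26.3% higher). Ighe, read as the IgE heavy chain constant region, was at 40.6 to 96.8 CPM in the controls and 8.07 to 33.4 CPM in 4A1 KO (-1.84). Ccl22, a chemokine, was decreased with a log2 fold change of -1.09, Xbp1, a factor of plasma cell development, with -0.94, and Ighg1, the IgG1 heavy chain constant region, with -0.69. The adjusted p of Ighg1 was 0.102 without the replicate block in edgeR. The plasma cell markers Sdc1 (-1.22) and Prdm1 (-0.64) were also decreased, while Jchain at 0.21 was not called. Over all 8 libraries Prdm1 was at -0.45, under the fold threshold. The part of these markers in the differences was not tested. Batf, a transcription factor of class switching, was also decreased and is named here after its values were seen. The MHC class II genes H2-Aa, H2-Ab1 and H2-Eb1, also named after their values were seen, were higher by 0.26, 0.19 and 0.20 at an adjusted p under 0.05. Their genotypes overlapped over the 8 libraries. In limma on log2(TPM + 1), H2-Aa passed, but H2-Ab1 and H2-Eb1 did not (adjusted p = 0.0614 and 0.0996). Cd86 (0.28) and Nfil3 (0.26) were also higher at an adjusted p under 0.05 in the counts, but did not pass in limma on log2(TPM + 1). Ccl17 (-0.15) and Pim1 (-0.08) did not pass.

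For each called gene, the profiles most like its own were found among 8383 genes as the smallest root mean square difference of centred log2 CPM over the 8 libraries. They were Pdp2 (0.0822) and Lipg (0.13) for Il4ra, Pkmyt1 (0.067) and Apeh (0.0687) for Jak3, and Dhrs3 (0.19) and Ubl7 (0.20) for Socs1. For Cish and Socs2, added after their values were seen, the nearest were Thy1 (0.41) and Klhl9 (0.19). Thy1 is on the fibroblast list, whose collagen genes and Sparc differed between the batches in the other direction. These libraries share genotype, batch and sex, which also shape such a likeness.

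The mRNAs of the 10 genes differed in their untranslated regions as annotated. The 5′ UTR of the canonical transcript ran from 181 bases in Fcer2a to 989 bases in Cish, beside a median of 233 bases over 11272 coding genes, and only that of Fcer2a was shorter than this median. Its GC content was lowest in Fcer2a, at 48.1%, and highest in Socs3, at 68.7%, beside a median of 65.0%. The pentamer ATTTA of AU-rich elements occurred 4 times in the 3′ UTR of Socs3 and of Jak1, 3 times in that of Cish and 2 times in those of Jak3 and Socs2, and not in those of Il4ra, Stat6, Fcer2a, Il4i1 and Socs1. At least 1 was present in 72.0% of the coding genes. The called genes Il4ra, Jak3 and Socs1 had 5′ UTRs of 403, 545 and 631 bases.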

How the data were processed

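RNA of CD40LB and IL4 cultured splenic B cells was sequenced as paired reads of 50 bases from 4 control and 4 4A1 KO mice. The authors trimmed reads with Trim Galore 0.6.6, mapped them to GRCm39 with HISAT2 2.1.0, and deposited strand-specific read counts per gene without normalization. The deposited TPM were calculated by the authors with StringTie 2.1.1. Because counting used strand, genes on the opposite strand of a member can be told apart. Groups, sex and batch were taken from the labels.

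The whole count table was fitted in R 4.3.3 with edgeR 4.0.16 (filterByExpr, TMM, quasi-likelihood test) on replicates 2 to 4 with batch, sex and genotype; batch and sex here equal the replicate number as a block. Tests are two-sided and adjusted by the Benjamini-Hochberg method over all genes. CPM are TMM-normalized. TPM were tested with limma 3.58.1 on log2(TPM + 1) over genes averaging 1 TPM or more. Pairing rests on the batch and sex labels. Deviations from the genotype mean correlated at 0.63, 0.54 and 0.47 within numbers. The average between numbers was -0.27, which follows from these values because deviations within a genotype cancel out, and it is no separate support. In simulated counts for this comparison edgeR called 184 of 198 changed genes of 14068, with 2 false calls. The simulation held far fewer changed genes than the data, where 7538 of 14218 genes passed an adjusted p under 0.05 in edgeR. The recovered share was not split by size of change, so it does not give the power for the genes described here.

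Annotation was from GENCODE M39, which matched 52647 of 53242 identifiers, and promoters from RefSeq. Named pathway genes were up to 4 per role with the smallest adjusted p, with Il2rg, Jak2, Tyk2, Stat5a, Stat5b and Socs4 to Socs7, and the genes overlapping or nearly identical to a member. Members and lists were chosen with earlier results of these data known. Alternatives were other scalings, DESeq2 1.42.0, no filter, no block, all 8 libraries and leaving out replicates or libraries. Every column of the tables was mapped to a sample. Results for 2 genes of the pathway list are not reported here; they are counted in the list's totals and left out of its plot.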

Additional observations from a re-analysis of the deposited data

Results flagged for a closer look

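Among the 40 genes whose genotype differences were compared between batches, 3 had both pairs of batch A on one side of 0 and both pairs of batch B on the other. For Cish the difference of the genotype effects, batch B minus batch A, was -0.50 on the log2 scale with an unadjusted p of 0.211 in edgeR's interaction test, for Socs2 -0.92 with an unadjusted p of 0.00118, and for Il15ra -0.33 with an unadjusted p of 0.190. The adjusted p was 0.999 in edgeR's test for each of the 3. The same-numbered pairs of Socs2 lay at 0.28 and 0.52 in batch A and at -0.42 and -0.64 in batch B.

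In 82 groups of 4 libraries, 3 held a library far from the others of its group, and chance alone gives about 1 in 20 groups, here 4.1. Il9r, the IL9 receptor, was at 108 CPM in control 2 and at most 53.8 CPM in the other controls, so that this gap was 0.850 of the group's range. Stat4 was at 16.8 CPM in 4A1 KO replicate 3 and at 18.04 to 18.26 CPM in the other 4A1 KO libraries, a gap of 0.844 of the range. Socs6 was at 38.1 CPM in 4A1 KO replicate 4 and at 44.3 to 45.1 CPM in the others, a gap of 0.880 of the range. None of these libraries stood apart for any of the 10 genes by the same measure.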

How the results depend on the processing

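The number of the 10 genes called was 3 under other scalings, DESeq2, no filter on low counts and all 8 libraries, and 3 to 4 when a replicate or a library was left out. Without the replicate block it was 2, since Socs1 lost its call (-0.68), as did Ighg1 (-0.69, adjusted p = 0.102, edgeR); the count over all genes fell to 3000 of 14218. Of 170 estimates of the 10 genes under alternatives, 160 kept their direction and side of the thresholds. The exceptions were Socs1, Il4i1, which gained a call without replicate 4 (-0.52), and Socs2, which ran from -0.53 to 0.04 as replicates were left out (0.036 without replicate 4, 0.033 without control 4, 0.041 without 4A1 KO 4). Il15ra ran from -0.21 to 0.05 (0.054 without replicate 3, 0.052 without control 3, 0.055 without 4A1 KO 3). Of 510 estimates of 30 other pathway genes, 486 kept direction and side, 9 lost a call and 12 gained one, those of Il7r (6), Irs2 (3) and Stat2 (3). The number of the 10 genes past the TPM test was 6, 3 with no filter on low TPM, and 3 to 8 as replicates were left out. Among the 40 genes so examined no other direction turned, and causes were not tested. With 3 libraries a genotype, an exact permutation test cannot go below 0.10, so the calls rest on models that share the spread across genes.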
